A study of Mus musculus with 16 samples.

Results

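A set of 10 genes of Wnt signalling was followed here in sorted epithelial cells of the mouse small intestine, namely the ligands Wnt3 and Wnt9b, the receptors Fzd5, Fzd7, Lrp5 and Lrp6, the R-spondin receptor Lgr4 and the feedback inhibitors Rnf43, Znrf3 and Nkd1. They were chosen by symbol, and all 10 were found among the 45513 genes counted. The samples were 16 RNA-seq libraries from 8 mice, with 1 library of EpCAM+tdTom+ cells (tdTompositive, written tdTom+ below) and 1 of EpCAM+tdTom- cells (tdTomnegative, written tdTom-) from each. Both fractions came from the same Atoh1(WT)CreERT2 R26RtdTom animals, so the comparison is between cells of an animal and not between genotypes.

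All mice were homozygous for Atoh1(WT)CreERT2, in which the tamoxifen-inducible recombinase CreERT2 is made from the locus of Atoh1, a transcription factor gene of secretory cells, and heterozygous for the tdTomato reporter. They were C57BL/6 males and females aged 8 to 16 weeks. Per the labels they received 1 mg tamoxifen a day on 3 days, the schedule that the methods also give for the secretory signature, which compares these fractions. A further passage of the methods, on RNA sequencing in general, describes 1 injection on the day before collection. The label is inherited by progeny, so tdTom+ cells are secretory cells and their descendants rather than a single cell type. The tissue was fractionated to enrich crypts, and tdTom- cells were not sorted further by type.

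In canonical Wnt signalling a secreted Wnt protein binds a Frizzled receptor (Fzd) together with the co-receptor LRP5 or LRP6, which spares β-catenin from destruction and lets it activate genes with TCF factors. R-spondins bound to LGR receptors keep Frizzled on the cell surface by restraining RNF43 and ZNRF3, ubiquitin ligases that remove it, and NKD1 binds Dishevelled and dampens the signal inside the cell. In the small intestine, Paneth cells at the crypt base are a known epithelial source of WNT3 for neighbouring stem cells, while stromal cells supply other Wnts and R-spondins.

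Promoter sequences are shown first for both ligands, for Nkd1, whose difference between fractions came next to that of Wnt3, and for Fzd5, the receptor that was lower in tdTom+ cells. No entry was matched for Lrp5, Lrp6 and Znrf3. Each runs 5′ to 3′ on the strand of the gene, from 150 bases before to 30 bases after the RefSeq start (GRCm38.p6). The windows are chr11:103774025-103774204 on the plus strand for Wnt3, chr11:103749792-103749971 on the minus strand for Wnt9b, chr8:88527483-88527662 on the plus strand for Nkd1 and chr1:64737721-64737900 on the minus strand for Fzd5. Capitals mark matches to the TCF-type motif CTTTGTT or the E-box CAGCTG, a motif bound by basic helix-loop-helix factors.
Wnt3: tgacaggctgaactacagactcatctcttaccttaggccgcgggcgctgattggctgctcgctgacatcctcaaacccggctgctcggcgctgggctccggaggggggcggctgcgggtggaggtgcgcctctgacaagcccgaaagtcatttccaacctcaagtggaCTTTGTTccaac
Wnt9b: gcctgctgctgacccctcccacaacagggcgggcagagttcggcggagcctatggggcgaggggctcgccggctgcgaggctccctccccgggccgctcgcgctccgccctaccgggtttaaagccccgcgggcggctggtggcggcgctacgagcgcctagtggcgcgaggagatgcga
Nkd1: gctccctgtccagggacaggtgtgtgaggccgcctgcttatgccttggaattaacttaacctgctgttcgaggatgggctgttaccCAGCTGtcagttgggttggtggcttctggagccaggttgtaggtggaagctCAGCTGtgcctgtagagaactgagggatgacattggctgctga
Fzd5: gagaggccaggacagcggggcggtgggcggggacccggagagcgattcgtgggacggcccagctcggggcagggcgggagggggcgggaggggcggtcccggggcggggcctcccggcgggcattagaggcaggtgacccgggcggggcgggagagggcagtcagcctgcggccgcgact

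Both TCF-type motifs, CTTTGAT and the variant CTTTGTT, were searched together with the E-box on both strands, from 250 bases before to 50 bases after the start. Wnt3 held CTTTGTT beginning 19 bases into the transcript, and Fzd7 held it on the opposite strand at position -130, counted from the start. Nkd1 held CAGCTG at -64 and -13, in a window that lies inside the gene as the files count it, since the RefSeq start is 6289 bases downstream of the 5′ end in the files. CTTTGTT was present in 5.85% of 32851 mouse promoters of this length and CAGCTG in 16.3%. CTTTGAT, present in 3.73%, was in none of the 8 promoters found for 7 members. A match of this kind is a run of letters and was not measured as a bound site.

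Library depth was 17116405 to 25323567 assigned counts, so that 3 counts correspond to 0.123 to 0.191 CPM (counts scaled to a common library size with TMM factors). The label was checked with Atoh1, which was at 62.5 ± 12.7 CPM among tdTom+ and 0.718 ± 0.247 CPM among tdTom- libraries (SD, n = 8), and with Epcam, at 942 ± 56.6 and 1019 ± 53.8 CPM. The Paneth panel and the goblet panel were each higher in tdTom+ for 8 of 8 genes, and the absorptive panel was lower for 8 of 8. The immune panel was lower in tdTom+ for 7 of 8 genes, and its score (mean log2 CPM) was highest in the tdTom- libraries of mice 7 and 8, at 3.45 and 3.64 against 0.144 to 1.92 in the other 6. Their stem panel scores, 6.10 and 5.88, were also above the 4.93 to 5.51 of the others, and the part of these differences in the results was not tested.

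Genes were compared between fractions within mice by the quasi-likelihood test of edgeR, with adjusted p under 0.01 over 15323 genes as the threshold. In all, 5 members were higher in tdTom+ (Wnt3, Wnt9b, Lgr4, Znrf3 and Nkd1), 1 was lower (Fzd5) and 4 did not pass (Fzd7, Lrp5, Lrp6 and Rnf43). Of all genes tested 25.8% were higher and 30.0% lower, 55.8% in all, so 6 of 10 members called is near the share of all genes, and the direction and the size of each member are what follows. The median log2 fold change was 0.36 over the 10 members and 0.02 over all genes. In these sorted pools, more cells of a type and more RNA per cell cannot be told apart.

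**Figure D1:**
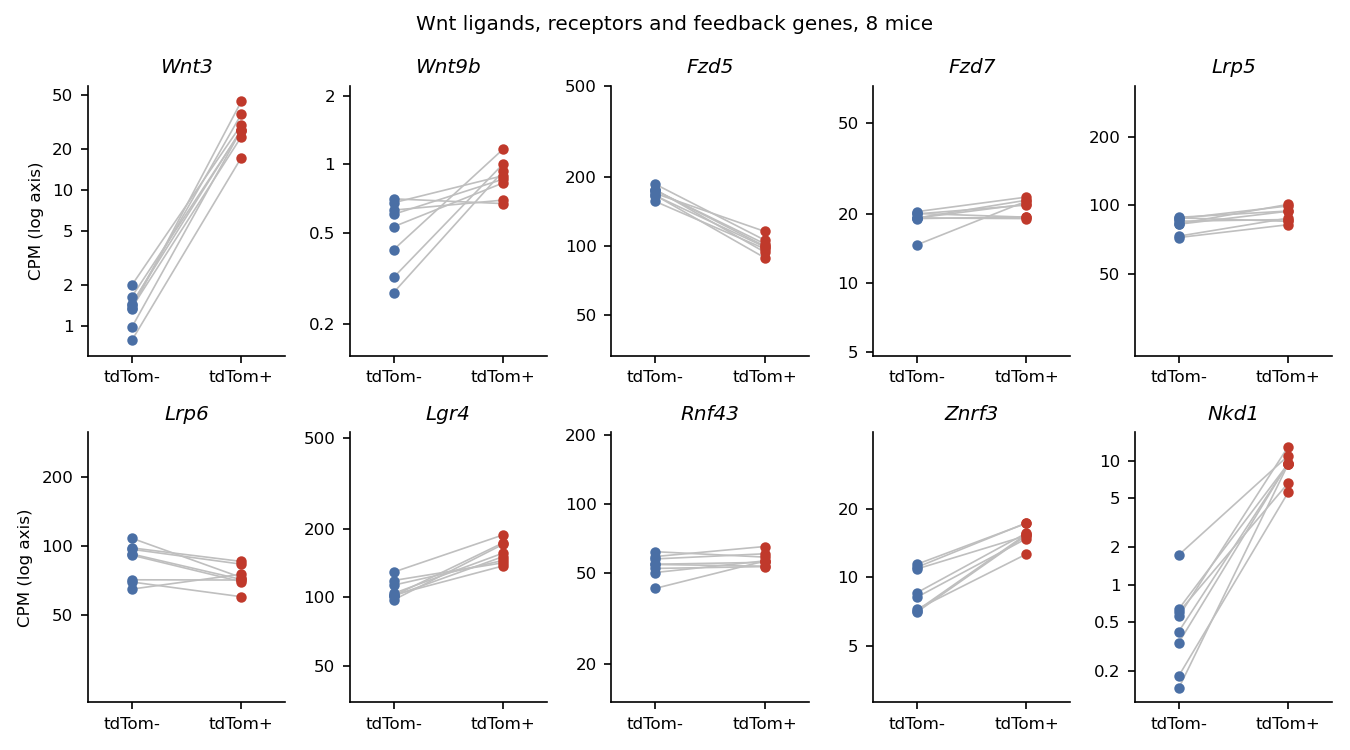
CPM of the 10 members on log axes in the 8 tdTom- (blue) and 8 tdTom+ (red) libraries, with a grey line joining the libraries of a mouse. Wnt3 and Nkd1 rose in 8 of 8 mice by 21.5 and 16.6 times, Fzd5 fell in 8 of 8, and the points of Fzd7, Lrp5, Lrp6 and Rnf43 overlapped between fractions.

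Wnt3 (chr11:103774150-103817957, plus strand) encodes a ligand of the canonical pathway. It lay between 17.3 and 44.9 CPM in tdTom+ libraries, with a median of 27.7, and between 0.776 and 1.98 CPM in tdTom- libraries, with a median of 1.38. The fractions did not overlap, and the lowest tdTom+ library still stood well above the highest tdTom- library. Wnt3 was 21.5-fold higher in tdTom+ cells (log2 fold change 4.43 ± 0.12 SE, adjusted p = 2.335e-12 by edgeR) and higher in 8 of 8 mice, whose own log2 differences ran from 3.86 to 4.99. It was counted 408 to 896 times per tdTom+ library and 17 to 38 times per tdTom- library, so it was low in tdTom- cells and not absent.

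Wnt9b (chr11:103727364-103749821, minus strand), the other ligand, was low in both fractions. It had 11 to 28 counts in tdTom+ libraries (0.673 to 1.16 CPM, median 0.876) and 6 to 13 in tdTom- libraries (0.274 to 0.706 CPM, median 0.568). The ranges overlapped by a narrow margin and 7 of 8 mice were higher in tdTom+. The log2 fold change was 0.79 ± 0.23 SE (1.73-fold, 95% interval 0.28 to 1.29, adjusted p = 0.00893 by edgeR). This call was lost with DESeq2 (adjusted p = 0.0266), with scaling by total counts (0.0175), without the expression filter (0.0104) and without any of mice 1, 4, 5, 7 or 8 (0.0125 to 0.0299).

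Wnt3 and Wnt9b are neighbours on chromosome 11, pointing away from each other with 24329 bases between their 5′ ends. Within each mouse the log2 difference of Wnt3 exceeded that of Wnt9b by 2.81 to 4.58, with a median of 3.60. The difference between fractions was thus larger for Wnt3 than for the adjacent ligand gene in 8 of 8 mice. Of 12 genes within 200 kb of the pair 8 were tested, 4 were higher in tdTom+ and 1 was lower. Of all genes tested 55.8% were called, 25.8% higher and 30.0% lower. Besides both ligands the higher genes were Rprml (log2 fold change 1.53 ± 0.22 SE) and Arf2 (0.51 ± 0.08 SE), the lower gene was Gosr2 (-0.42 ± 0.06 SE), and the gene next to Wnt3, Nsf, was at 0.20 ± 0.06 SE and did not pass (adjusted p = 0.0102 by edgeR).

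Per kilobase of exon (RPKM), Wnt3 took most of the Wnt message of tdTom+ cells. Summed over 19 Wnt genes the level was 7.05 to 15.9 RPKM in tdTom+ libraries (median 10.9) and 1.50 to 2.93 in tdTom- libraries (median 2.47). Wnt3 made up 79.7% to 91.8% of that sum in tdTom+ (median 86.6%) and 10.9% to 28.6% in tdTom- (median 18.0%), with no overlap. Wnt9b made up 1.39% to 2.93% in tdTom+ and 2.63% to 6.79% in tdTom-. Wnt4, Wnt5b and Wnt6 were each lower in tdTom+ cells, as given with the other ligands further on.

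Fzd5 (chr1:64730558-64737751, minus strand), a Frizzled receptor of the intestinal epithelium, was the member that fell in tdTom+ cells. It lay between 88.6 and 116 CPM in tdTom+ (median 99.3) and between 156 and 186 CPM in tdTom- (median 172). No tdTom+ library reached the tdTom- range. It fell by 0.78 on the log2 scale (0.05 SE, 1.71-fold lower, adjusted p = 1.911e-08 by edgeR) and was lower in 8 of 8 mice, by 0.55 to 0.91 log2. A gene on the opposite strand of Fzd5, Gm38058, had at most 5 counts in any library.

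None of the other receptors passed the threshold. Fzd7 (chr1:59482424-59486955, plus strand), a Frizzled receptor of intestinal stem cells, was at 19.1 to 23.7 CPM in tdTom+ (median 22.0) and 14.7 to 20.5 CPM in tdTom- (median 19.2), with a difference of 0.17 ± 0.07 log2 (SE, adjusted p = 0.0589 by edgeR, 6 of 8 mice higher). Lrp5 (chr19:3584828-3686564, minus strand) was at 82.3 to 101 CPM (median 91.1) against 72.3 to 88.7 CPM (median 84.2), with a difference of 0.15 ± 0.05 log2 (SE, adjusted p = 0.0241, 7 of 8 higher). Both sets of ranges overlapped. Lrp6 (chr6:134446476-134566965, minus strand), the co-receptor homologous to LRP5, was at 60.1 to 85.7 CPM (median 72.2) against 64.9 to 108 CPM (median 91.9), with a difference of -0.22 ± 0.08 log2 (SE, adjusted p = 0.0223, 7 of 8 lower).

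The intervals of the receptors that did not pass cover the sampling error of the main fit, and not the choice of scaling or filter. The 95% intervals of the log2 fold change were 0.0098 to 0.33 for Fzd7, 0.034 to 0.26 for Lrp5 and -0.38 to -0.054 for Lrp6. None of them held 0, since they are not adjusted for the number of genes tested. Their point values lay on both sides of 0, with Lrp5 above it and Lrp6 below it. Lrp5 passed without mouse 3 (adjusted p = 0.0033 by edgeR), which moved the median of all genes to 0.12, and Lrp6 passed without mouse 8 (0.0029) or with scaling by total counts (0.00565). Fzd7 at 0.29 and Lrp5 at 0.27 passed with a filter of 10 counts in every library, a setting that also moved that median to 0.12. This value of Lrp5 lay above its interval in the main fit.

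Lgr4 (chr2:109917647-110014257, plus strand), the broadly expressed R-spondin receptor, was higher in tdTom+ cells. It lay between 137 and 188 CPM in tdTom+ (median 154) and between 97.4 and 129 CPM in tdTom- (median 103). The ranges did not overlap. The log2 fold change was 0.54 ± 0.07 SE (1.45-fold, adjusted p = 7.003e-06 by edgeR), with 8 of 8 mice higher. Lgr4 rose and Fzd5 fell in the same 8 mice.

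The feedback inhibitors covered the whole span from no call to a difference near that of Wnt3. Rnf43 (chr11:87662722-87735539, plus strand) was at 53.2 to 65.1 CPM in tdTom+ (median 56.3) and 42.7 to 61.8 CPM in tdTom- (median 54.4), with a difference of 0.09 ± 0.06 log2 (SE, 95% interval -0.032 to 0.21, adjusted p = 0.175 by edgeR, 6 of 8 mice higher). Its ranges overlapped, and it passed with the filter of 10 counts in every library (0.21, adjusted p = 0.00433). A gene on the same strand within Rnf43, 1110028F11Rik, had 6 to 24 counts.

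Znrf3 (chr11:5276324-5444847, minus strand), the ubiquitin ligase related to RNF43, was at 12.7 to 17.3 CPM in tdTom+ (median 15.4) and 7.06 to 11.4 CPM in tdTom- (median 8.39). The fractions did not overlap. The log2 fold change was 0.80 ± 0.08 SE (1.74-fold, adjusted p = 1.296e-06 by edgeR), and 8 of 8 mice were higher. Per length, Znrf3 was 19.7% to 25.5% of Rnf43 in tdTom+ libraries and 10.4% to 22.2% in tdTom- libraries, so Rnf43 was the more abundant of this pair in all 16.

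Nkd1 (chr8:88521344-88594887, plus strand) came next to Wnt3 in the size of its difference. It lay between 5.55 and 13.0 CPM in tdTom+ (median 9.47) and between 0.145 and 1.73 CPM in tdTom- (median 0.485). The ranges did not overlap, and the highest tdTom- value was that of mouse 7, at 38 counts against 3 to 15 in the other 7 tdTom- libraries. The log2 fold change was 4.05 ± 0.25 SE (16.6-fold, adjusted p = 6.239e-09 by edgeR), with 8 of 8 mice higher, and it was 4.44 without mouse 7 (adjusted p = 1.35e-10). Differences within mice ran from 2.60 log2 in mouse 7 to 5.29 in mouse 6, a wider span than for Wnt3. The largest rested on the fewest tdTom- counts, 3 in mouse 6, and the prior count of 2 in log2 CPM draws it toward 0.

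**Figure D2:**
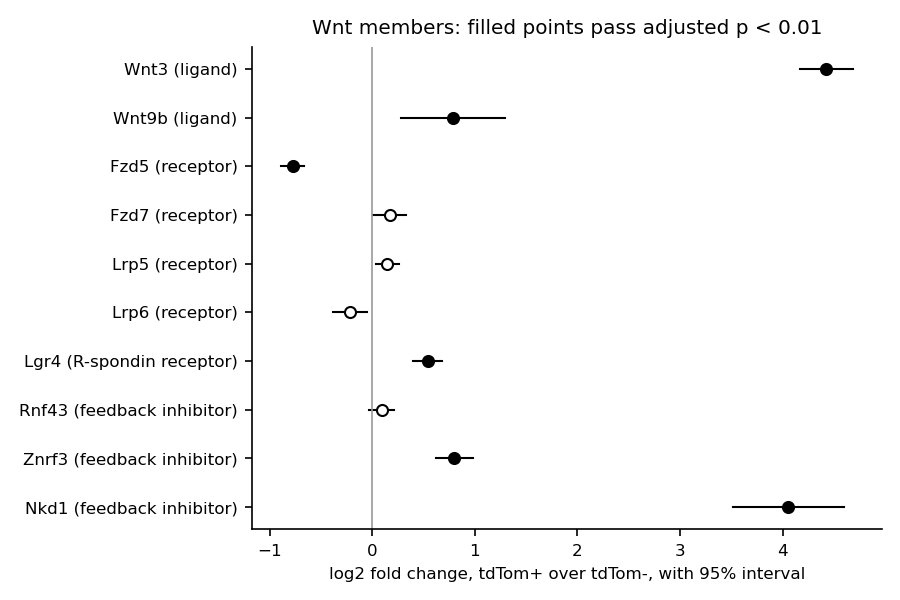
Log2 fold change of tdTom+ over tdTom- with its 95% interval for the 10 members, named with their role, from the paired edgeR fit on 8 mice. Filled points passed an adjusted p of 0.01; Wnt3 at 4.43 and Nkd1 at 4.05 stand apart from the other 8, which lie between -0.78 and 0.80.

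Set against the receptors and the feedback ligases within each mouse, Wnt3 rose further than Wnt9b, Fzd5, Fzd7, Lrp5, Lrp6, Lgr4, Rnf43 and Znrf3 in 8 of 8 mice. The smallest of these within-mouse margins was 2.81 log2, against Wnt9b, and the median margin ran from 3.57 against Znrf3 to 4.93 against Fzd5. Nkd1 was the exception. The difference of Wnt3 exceeded that of Nkd1 in 4 of 8 mice, with a median margin of 0.12 and a range of -0.59 to 2.39. These values use log2 CPM with a prior count of 2, which draws differences that rest on few counts toward 0. Nkd1 had 3 to 38 counts in tdTom- libraries and Wnt3 had 17 to 38. The sign of the median margin and its lower end therefore depend on that setting.

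The order of the levels per length differed between fractions. In tdTom+ libraries Lgr4 came first at 26.8 ± 3.00 RPKM (SD, n = 8), above Fzd5 at 14.5 ± 1.17, and then came Wnt3 at 9.59 ± 2.65, Lrp5 at 9.39 ± 0.707, Rnf43 at 8.75 ± 0.605 and Lrp6 at 7.51 ± 0.821. Each neighbouring pair from Fzd5 down to Lrp6 overlapped in range, although Fzd5 lay wholly above Lrp5, Rnf43 and Lrp6. Fzd7 at 4.73 ± 0.409 followed without overlap, Nkd1 at 2.07 ± 0.522 and Znrf3 at 1.96 ± 0.186 overlapped, and Wnt9b came last at 0.195 ± 0.0353.

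In tdTom- libraries Fzd5 came first at 24.8 ± 1.28 RPKM (SD, n = 8), above Lgr4 at 18.4 ± 1.84. Lrp6 at 8.82 ± 1.62, Lrp5 at 8.48 ± 0.662 and Rnf43 at 8.23 ± 0.899 overlapped with their neighbours, and Fzd7 at 4.19 ± 0.404 and Znrf3 at 1.13 ± 0.239 each stood clear below the one before. Wnt3 had dropped to a place below Znrf3 at 0.443 ± 0.121, above Nkd1 at 0.129 ± 0.113 in 8 of 8 mice although their ranges overlapped. Wnt9b at 0.115 ± 0.0364 was not separable from Nkd1.

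**Figure D3:**
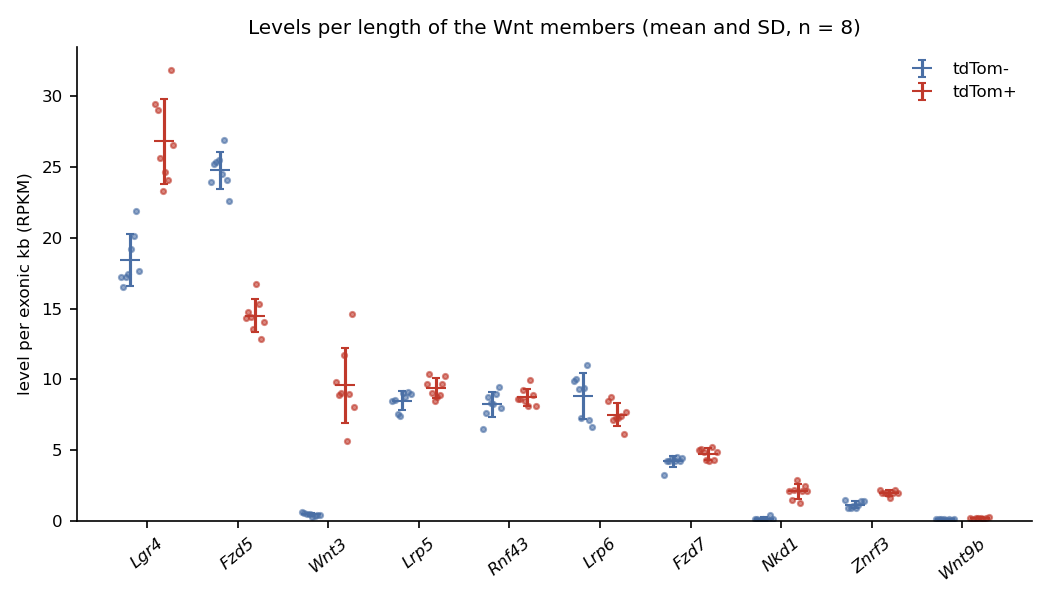
Level per kilobase of exon (RPKM) of the 10 members in tdTom- (blue) and tdTom+ (red) libraries, with dots for libraries and a bar and whiskers for mean and SD (n = 8), ordered by the tdTom+ mean. Lgr4 and Fzd5 exchanged the first place between fractions, and Wnt3 moved from 0.443 to 9.59 RPKM.

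Ligand and receptor RNA levels can be set side by side as ratios within a library, which pools cells of several types. Wnt3 per length was 0.336 to 1.14 times Fzd5 in tdTom+ libraries (median 0.616) and 0.0103 to 0.0269 times in tdTom- libraries (median 0.0183). Against Lrp6 it was 0.772 to 2.39 times in tdTom+ (median 1.18) and 0.0268 to 0.0665 times in tdTom- (median 0.0567). Against Fzd7 it was 1.33 to 3.41 times in tdTom+ (median 1.81) and 0.0595 to 0.199 times in tdTom- (median 0.103). None of these 3 ratios overlapped between fractions, which follows from the 21.5-fold difference of Wnt3 beside the much smaller differences of these receptors. Fzd7 per length was 25.2% to 35.1% of Fzd5 in tdTom+ and 13.5% to 19.5% in tdTom-, without overlap.

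The tdTom+ fraction mixes Paneth, goblet and other secretory cells, and its panel scores varied between mice. Proportions of cell types were not measured. Wnt3 was therefore compared with panel scores over the 8 tdTom+ libraries, with adjusted p under 0.05 as the threshold for relations with a panel. Wnt3 was highest in mouse 7 and lowest in mouse 5, and so was the Paneth score, which ran from 11.5 to 12.8 log2 CPM. Pearson's r was 0.958 (exact two-sided permutation p = 0.000273, 0.00218 adjusted over the 8 relations examined) and Spearman's rho was 0.929 (exact permutation p = 0.00223, adjusted 0.0179). Without mice 5 and 7, the 2 farthest from the median score, r was 0.947. The absorptive score of these libraries ran the other way, lowest in mouse 7 (7.32) and highest in mouse 5 (9.36). Its relation with Wnt3 was not tested.

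The relation of Wnt3 with the goblet score did not pass (r = -0.161, exact permutation p = 0.711, adjusted 0.858; rho = -0.0952, exact permutation p = 0.840), which ran from 12.5 to 13.3. Without mice 6 and 7, the 2 farthest from the median goblet score, r was 0.417. For Wnt9b, r was 0.0814 with the Paneth score (exact permutation p = 0.858; rho = -0.0714, exact permutation p = 0.882) and -0.0872 with the goblet score (exact permutation p = 0.830; rho = -0.262, exact permutation p = 0.536), and neither passed. Wnt9b had at most 28 counts in a library. The Paneth panel had a median log2 fold change between fractions of 7.40 over its 8 genes, against 4.43 for Wnt3.

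**Figure D4:**
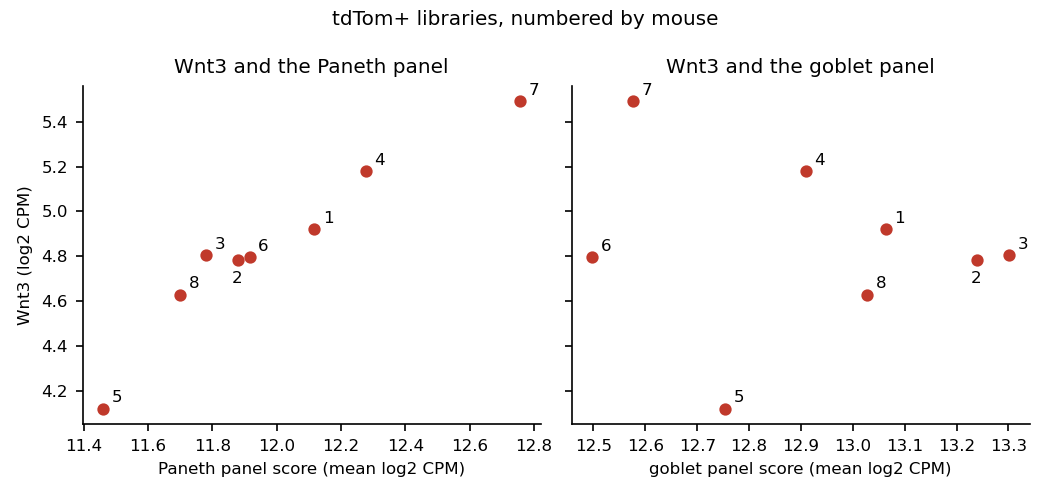
Wnt3 (log2 CPM) in the 8 tdTom+ libraries, numbered by mouse, against the mean log2 CPM of 8 Paneth genes (left) and of 8 goblet genes (right). Wnt3 increased with the Paneth score (r = 0.958), while its relation with the goblet score did not pass (r = -0.161). No other panel was compared with Wnt3.

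Another 4 members were set against the Paneth score in tdTom+ libraries, a choice made after their values had been seen. Fzd5 ran against it (r = -0.837, exact permutation p = 0.0122, 0.0486 adjusted over these 4), but rho was -0.667 (exact permutation p = 0.0831) and r was -0.404 without mice 5 and 7, so the relation rested on those libraries. For Nkd1 r was 0.693 (exact permutation p = 0.0605, adjusted 0.0806; rho = 0.619, exact permutation p = 0.115), for Znrf3 it was 0.727 (exact permutation p = 0.0472, adjusted 0.0806; rho = 0.619, exact permutation p = 0.115) and for Lgr4 it was 0.522 (exact permutation p = 0.185; rho = 0.238, exact permutation p = 0.582). Nkd1, Znrf3 and Lgr4 did not pass. Without mice 5 and 7, r was 0.552 for Nkd1, 0.141 for Znrf3 and -0.219 for Lgr4.

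In tdTom- libraries the feedback genes and Fzd7 were compared with the stem panel (Lgr5, Ascl2, Olfm4, Smoc2, Slc12a2, Rgmb and Gkn3). That panel was itself higher in tdTom+ cells for 5 of 7 genes and lower for 0. Its score was 5.77 to 6.48 in tdTom+ and 4.93 to 6.10 in tdTom- libraries. Lgr5 and Ascl2 are Wnt targets as well, so the score is not independent of the pathway. For Nkd1 r was 0.773 (exact permutation p = 0.0242, adjusted 0.0968; rho = 0.667, exact permutation p = 0.0831) and for Znrf3 it was 0.735 (exact permutation p = 0.0422, adjusted 0.113; rho = 0.643, exact permutation p = 0.0962). Neither passed after adjustment, and without mice 7 and 8 r was 0.356 and 0.438. For Rnf43 r was 0.258 (exact permutation p = 0.547; rho = 0.333, exact permutation p = 0.428) and for Fzd7 it was 0.165 (exact permutation p = 0.628; rho = 0.0952, exact permutation p = 0.840).

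The rest of the pathway was read from 92 further genes grouped by role, of which 58 passed the expression filter. Of these 28 were higher in tdTom+ cells, 11 were lower and 19 did not pass, with a median log2 fold change of 0.33. Of all genes tested 25.8% were higher and 30.0% lower, 55.8% in all, with a median of 0.02. The counts for each list below stand beside these same shares, and no list was tested as a set. Of 17 other Wnt ligands 5 were tested and 6 were at 0 in all libraries. Wnt9a (log2 fold change 4.04 ± 0.29 SE) and Wnt5a (2.63 ± 0.24 SE), a ligand known for non-canonical signalling, rose, and Wnt6 (-2.54 ± 0.23 SE), Wnt5b (-2.11 ± 0.20 SE) and Wnt4 (-1.65 ± 0.20 SE) fell. None of these 5 exceeded 4 CPM in any library, below the 17.3 CPM of the lowest Wnt3 library in tdTom+. Counts in the lower fraction were few, at 0 to 5 for Wnt9a and 1 to 9 for Wnt5a in tdTom- libraries. In tdTom+ libraries they were 2 to 16 for Wnt6, 2 to 10 for Wnt5b and 3 to 15 for Wnt4. Each of the 5 passed the expression filter by its counts in the higher fraction, which favours a call.

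The machinery that loads and exports Wnt proteins rose along with the ligand. Porcn, the acyltransferase that adds the lipid every secreted Wnt needs, lay between 3.76 and 7.83 CPM in tdTom+ and between 0.651 and 1.46 CPM in tdTom- (log2 fold change 2.36 ± 0.18 SE, adjusted p = 5.034e-08 by edgeR). Wls, the carrier that takes Wnts to the surface, lay between 32.5 and 45.5 CPM against 14.6 and 32.0 CPM (0.93 ± 0.08 SE, adjusted p = 2.895e-07). Both were higher in 8 of 8 mice without overlap. The 4 R-spondin genes were below the filter, and Rspo1 and Rspo2 were at 0 in all 16 libraries.

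Of 14 other receptors and co-receptors 10 were tested, 5 were higher, 1 was lower and 4 did not pass. Fzd9, a further Frizzled, was at 5.42 to 14.1 CPM among tdTom+ and 0.0457 to 0.387 CPM among tdTom- (1 to 8 counts), with a difference of 5.91 ± 0.21 log2 (SE). Ptk7, a pseudokinase co-receptor, rose by 1.20 ± 0.10 SE, and Fzd4 fell by 0.92 on the log2 scale (0.13 SE). Lgr5, the R-spondin receptor of crypt base stem cells, was at 25.5 to 38.3 CPM among tdTom+ and 9.83 to 33.3 CPM among tdTom-, with a difference of 0.89 ± 0.15 log2 (SE, adjusted p = 0.000167 by edgeR). Its ranges overlapped, unlike those of Lgr4, and 7 of 8 mice were higher.

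Among 17 secreted and surface antagonists 7 were tested, 4 were higher, 1 was lower and 2 did not pass. Dkk3, a divergent member of the Dickkopf family, was at 1.57 to 4.61 CPM in tdTom+ and had 0 to 2 counts in tdTom- libraries (adjusted p = 8.415e-09 by edgeR). Apcdd1, a membrane inhibitor (1.97 ± 0.15 SE), and Wif1, a secreted Wnt-binding inhibitor (0.88 ± 0.26 SE), rose. Notum, a secreted enzyme that removes the lipid from Wnts, fell by 1.20 on the log2 scale (0.34 SE, adjusted p = 0.00756), with 5 to 22 counts in tdTom+ and 4 to 57 in tdTom- libraries and overlapping ranges.

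The intracellular groups were mixed. Of 16 genes of the destruction complex and cytoplasmic transduction 15 were tested, 4 were higher and 3 lower, among them Amer1 (log2 fold change 1.41 ± 0.09 SE), Dvl1 (-1.21 ± 0.06 SE), Gsk3a (-0.60 ± 0.05 SE) and Tnks (-0.53 ± 0.09 SE). Of 12 genes of the nuclear TCF complex 9 were tested, 6 were higher and 2 lower. The Groucho-type co-repressors went both ways, with Tle2 (2.37 ± 0.24 SE) and Tle1 (0.88 ± 0.07 SE) up and Tle4 (-1.24 ± 0.05 SE) down.

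Of 10 crypt target genes 5 were higher, 1 was lower and 4 did not pass. Ephb3, a sorting receptor of crypt base cells (2.04 ± 0.11 SE), Sox9, a transcription factor of Paneth cells and progenitors (1.44 ± 0.11 SE), and Cd44 (0.61 ± 0.12 SE) rose, and Sp5, a transcription factor gene, fell by 1.68 on the log2 scale (0.13 SE). Axin2, a widely used Wnt target and feedback gene, was at 44.0 to 83.8 CPM among tdTom+ and 53.9 to 85.8 CPM among tdTom-, with a difference of -0.14 ± 0.09 log2 (SE, 95% interval -0.34 to 0.05, adjusted p = 0.168 by edgeR). The feedback genes Nkd1, Znrf3, Rnf43 and Axin2 thus did not move as a group.

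**Figure D5:**
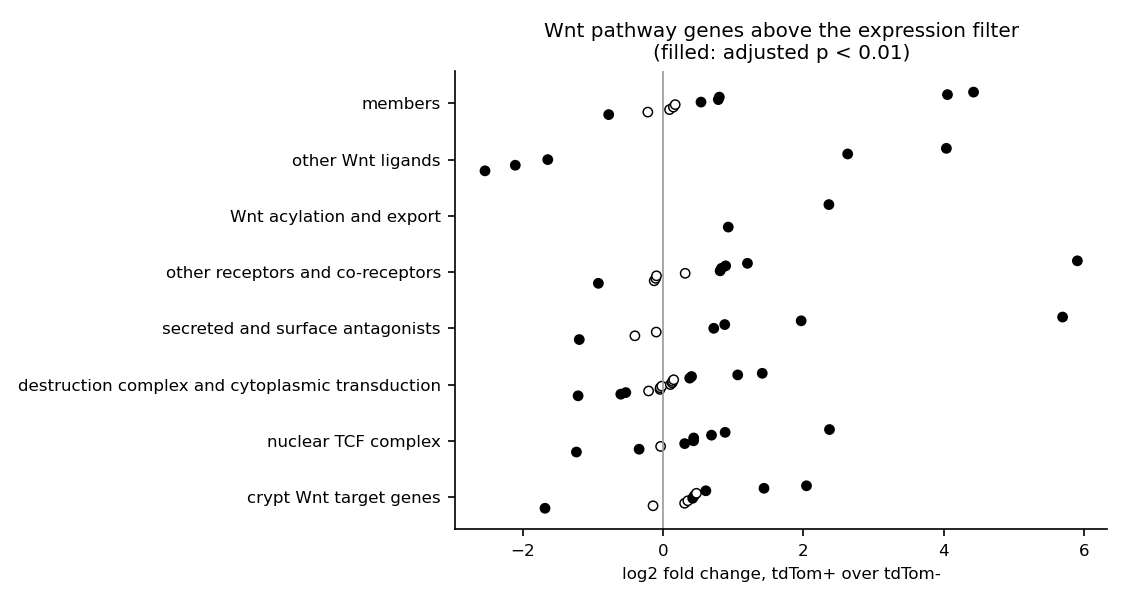
Log2 fold change of tdTom+ over tdTom- for the members and each list of pathway genes that passed the expression filter, with 1 point per gene and filled points past an adjusted p of 0.01. Points lie on both sides of 0 in every list but that of Wnt acylation and export, where both genes were higher.

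Markers of other cells moved beside some of these genes. The stromal panel summed to 18.6 to 45.8 CPM in tdTom+ and 4.12 to 8.40 CPM in tdTom- libraries, with 1 of 3 tested genes higher and with Col1a1 and Pdgfra at 3 counts or fewer in all libraries. The tuft panel was higher for 7 of 7 tested genes and the enteroendocrine panel for 8 of 8. Their part in Wnt5a, Wnt9a and Dkk3, or in the members, was not tested.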

How the data were processed

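RNA of sorted cells was made into TruSeq stranded libraries and sequenced as single-end reads. The authors aligned reads to GRCm38.p3 with TopHat2 2.1.1, per the submitters' processing notes, which also name Subread 1.5.2, while the file headers name featureCounts 1.5.0-p1. What the authors deposited are raw counts for each Ensembl gene on the reverse strand, without normalization. Reads of overlapping genes on the same strand can be lost, and counts carry no molecular identifiers, so a floor of 3 counts covers counting error only.

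Symbols came from GENCODE M21 (44585 of 45513 identifiers, 928 without) and promoters from RefSeq (GRCm38.p6). Genes were filtered by filterByExpr of edgeR 4.0.16 in R 4.3.3, scaled by TMM and tested by glmQLFTest with the mouse as a replicate block, with Benjamini-Hochberg adjustment and a threshold of 0.01. The script was tested on simulated data. CPM and RPKM were computed from the counts and TMM factors, and log2 CPM with a prior count of 2. The series design says that both fractions came from each mouse, and the titles give the number. Same-mouse libraries deviated together from their group means (r 0.245 to 0.634, median 0.420). Of the 8 tdTom+ libraries, 7 were best matched by the tdTom- library of their own mouse. The median r of different mice was -0.0739, a value that subtracting the group means draws below 0 where same-mouse r is above it. With the replicate number the only record of the animal, p-values measure the spread between these 8 pairs.

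Panel scores are means of log2 CPM, compared over 8 libraries with exact permutation tests and a threshold of 0.05. All members were named, with Atoh1, Epcam, Lgr5, Axin2, Porcn, Wls and Notum, up to 4 genes per list past the threshold with the largest absolute log2 fold change and at least 1 CPM in the higher fraction, the genes nearest in pattern to each ligand, and tested neighbours. Wnt4 was named in addition, after its values were seen, as were the 2 R-spondin genes at 0 and the overlapping genes. Members and lists were chosen with earlier results of these data known. Alternatives were other scalings, DESeq2 1.42.0, limma-voom (limma 3.58.1), other filters and thresholds, thinning to the smallest total, no replicate block, and each mouse left out in turn.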

Additional observations from a re-analysis of the deposited data

Results flagged for a closer look

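Fzd7 in the tdTom- library of mouse 1 stood apart from the other 7 tdTom- libraries. It was at 14.7 CPM (3.88 log2 CPM) where the others lay between 4.26 and 4.36 log2 CPM, and the gap was 0.791 of the whole range, above Dixon's 95% limit for 8 values. Of 20 sets of 8 values examined, this was 1 picked out, and chance would pick 1. Fzd7 was not called with all mice (log2 fold change 0.17).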

How the results depend on the processing

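No member changed sign between fractions under any alternative. Over the 188 member values under the alternatives, 168 kept their side of the threshold, 12 lost the call and 8 gained it. In 2 alternatives, an adjusted p of 0.05 and a required log2 change of 1, the values were those of the main fit. Only the limit moved there. Wnt3 stayed between 4.32 and 4.56, Nkd1 between 3.90 and 4.44, Fzd5 between -0.84 and -0.66, Lgr4 between 0.48 and 0.66 and Znrf3 between 0.74 and 0.92 (log2 fold change), all of them past an adjusted p of 0.01. Fzd5, Lgr4 and Znrf3 lost the call only where a log2 change of 1 or more was also required. Wnt9b and Nkd1 had no value with at least 10 counts in every library. The pairing was kept in the main comparison. With no replicate block, 5 members were higher and 1 lower, 24 pathway genes higher and 10 lower, and 3473 and 4133 of all genes, and no member's call changed (Wnt9b 0.77, adjusted p = 0.00274 by edgeR). Members called lower numbered 2 with total counts and 2 at an adjusted p of 0.05, and 1 to 2 when a mouse was left out (2 without mouse 8). Pathway genes called lower fell to 7 with at least 10 counts in every library. With a log2 change of 1 or more in size required as well, 2 members were higher and 0 lower, 12 pathway genes were higher and 7 lower, and 1740 and 1758 of all genes were higher and lower. The causes were not tested.

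At least 10 counts in every library moved the median of all genes from 0.02 to 0.12 and the share of calls that were higher from 46.2% to 57.0%, and leaving out mouse 3 moved them to 0.12 and 55.5%. Fzd7 (0.29), Lrp5 (0.27) and Rnf43 (0.21) passed under the former, values that include that shift. Of the panel relations, r of Wnt9b with the Paneth score became -8.28e-04 with total counts. When a mouse was left out r ran from 0.943 to 0.983 for Wnt3 with the Paneth score, -0.494 to 0.229 for Wnt3 with the goblet score, -0.285 to 0.381 for Wnt9b with the Paneth score, -0.527 to 0.219 for Wnt9b with the goblet score, -0.122 to 0.414 for Rnf43, 0.653 to 0.933 for Znrf3 and 0.542 to 0.908 for Nkd1 with the stem score. At the threshold of 0.05 for these relations, Znrf3 passed without mouse 1 (adjusted p = 0.0175, exact permutation test) and Nkd1 without mouse 6 (adjusted p = 0.00397, exact permutation test). Wnt9b rests on 6 to 28 counts per library, and Nkd1 on 3 to 38 in tdTom- libraries.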

Other observations

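The genes whose within-mouse differences between fractions were most like those of Wnt3 were found among 14367 tested genes with at least 1 CPM in the higher fraction, by the root mean square difference over the 8 mice. They were Cbfa2t3, a transcriptional co-repressor (0.207 log2), Rcan3 (0.277), Kit, a receptor tyrosine kinase (0.337), Selenom (0.363) and Bambi, a pseudoreceptor of the TGF-β family (0.369). Their log2 fold changes lay between 4.35 and 4.50, and their mean levels in tdTom+ libraries ran from 32.0 CPM for Cbfa2t3 to 157 CPM for Selenom, against 29.5 CPM for Wnt3.

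For Wnt9b the nearest patterns among 14368 genes were those of Spag1 (0.265 log2), Doc2b (0.307), 1810006J02Rik (0.336), Slc25a33 (0.369) and Sfxn3 (0.374). Their log2 fold changes ran from 0.56 for Doc2b to 1.15 for 1810006J02Rik, and Spag1 and Doc2b did not pass the threshold. The lists for the ligands shared no gene, which was fixed by the method. The ligands differed by at least 2.81 log2 in each mouse, far more than any distance listed.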
